A study of Mus musculus with 12 samples.

Results

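Retnla, Chil3 and Rnase2a are 3 genes of secreted proteins that interleukin 4 (IL4) switches on in mouse macrophages, and they were taken by symbol from a table of 13553 genes. They were selected on their measured levels in these libraries, by their higher log2 CPM after IL4, so their levels with and without IL4 are given as a description, and tests are kept to retinoic acid. The libraries came from bone marrow-derived macrophages of wild-type male C57BL/6 mice, grown with 10 ng/mL of the growth factor M-CSF, which all groups received. The 12 libraries formed 4 groups of 3, numbered 2, 3 and 4 in each. IL4 RA cells had 20 ng/mL IL4 for 24 h and then 1 µM all-trans retinoic acid (RA) for 6 h, and IL4 vehicle cells had the same IL4 and then DMSO. Naive RA and naive vehicle cells had medium without IL4 (the labels name PBS as their pre-treatment) before the same RA or DMSO. Cells were washed with PBS before the RA or DMSO step. Nothing in the labels says that the replicates came from separate animals or cultures, so a p-value here describes the spread among these libraries only, which may be technical.

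IL4 binds a receptor that activates the transcription factor STAT6, and macrophages exposed to it take on the alternatively activated state seen in worm infection, allergy and tissue repair. Retnla encodes resistin-like molecule alpha (RELMalpha, Fizz1), a small cysteine-rich secreted protein. Chil3 encodes Ym1, a secreted lectin of the chitinase family that lacks chitinase activity. Rnase2a, earlier named Ear11, encodes a secreted ribonuclease of the eosinophil-associated branch of the ribonuclease A family. RA acts through nuclear RA receptors on DNA. RNA was measured here, not secreted protein.

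The genes lie on different chromosomes (GRCm38). Retnla (Entrez 57262) spans chr16:48842609-48844461 on the plus strand, with a GENCODE start at 48842551 and 4 exons. Chil3 (Entrez 12655) spans chr3:106147554-106167564 on the minus strand with 11 exons, and Rnase2a (Entrez 93726) spans chr14:51255261-51256112 on the minus strand with 2 exons. The DNA before each start is shown because IL4-activated STAT6 and its partner C/EBP are known to act on the Retnla promoter, and because all 3 genes share the IL4 pattern. Windows are RefSeq sequence of GRCm38.p6, read in the direction of the gene, with 5′ end first; they end just before the most upstream annotated start. Capitals mark matches to a STAT motif (TTC and GAA with 4 bases between them, called N4, or with 3, called N3; any base may stand between) or the C/EBP core motif (TTGCNNAA), searched on both strands. The window of Chil4, the gene beside Chil3, is given for comparison.
Retnla, chr16:48842359-48842550, plus strand: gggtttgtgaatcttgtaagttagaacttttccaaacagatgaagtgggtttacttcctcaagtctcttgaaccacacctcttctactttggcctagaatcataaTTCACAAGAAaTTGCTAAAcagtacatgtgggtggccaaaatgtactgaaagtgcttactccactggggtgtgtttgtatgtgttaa
Chil3, chr3:106167565-106167814, minus strand: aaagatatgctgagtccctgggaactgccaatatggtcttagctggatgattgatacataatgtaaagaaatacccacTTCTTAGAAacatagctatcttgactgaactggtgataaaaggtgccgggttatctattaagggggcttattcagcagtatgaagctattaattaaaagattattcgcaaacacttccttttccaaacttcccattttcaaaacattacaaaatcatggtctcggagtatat
Chil4, chr3:106219508-106219729, minus strand: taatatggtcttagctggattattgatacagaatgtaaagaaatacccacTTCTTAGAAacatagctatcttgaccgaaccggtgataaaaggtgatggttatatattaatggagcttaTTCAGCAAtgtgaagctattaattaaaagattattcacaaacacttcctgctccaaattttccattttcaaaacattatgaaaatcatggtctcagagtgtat
Rnase2a, chr14:51256113-51256362, minus strand: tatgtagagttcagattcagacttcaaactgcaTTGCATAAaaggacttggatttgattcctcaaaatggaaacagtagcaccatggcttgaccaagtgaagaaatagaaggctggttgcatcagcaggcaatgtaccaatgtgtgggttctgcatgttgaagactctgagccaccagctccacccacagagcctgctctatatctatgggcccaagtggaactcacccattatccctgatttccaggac

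The Retnla window held TTCACAAGAA, a match to the N4 form that STAT6 prefers, beginning 145 bases before the RefSeq start. The C/EBP core match TTGCTAAA began at 134 bases before it, directly downstream and without overlap. Of 32851 RefSeq windows of 250 bases, 5.85% held the N4 motif, 9.56% held TTGCNNAA, and 0.609% held both. Chil3 had no N4 match but held TTCTTAGAA, a match to N3, 172 bases before its start; 7.02% of all windows held that motif. The same TTCTTAGAA stood in the Chil4 window, which matched that of Chil3 at 201 of 222 aligned positions (90.5%). Chil4 also held the C/EBP core on its opposite strand, printed as TTCAGCAA. In the Rnase2a window neither STAT motif was found, and TTGCATAA, a C/EBP core match, lay 217 bases before the start. AGGTCA, the core motif of nuclear receptors that 14.0% of all windows held, was found once, 50 bases before the RefSeq start of Retnla, and TATAAA (12.4% of windows) at 30 bases before that start and at 31 before that of Chil4. Both Retnla matches lie in the 58 bases before the RefSeq start that are left out of the sequence shown, downstream of the GENCODE start, and the Chil4 match runs into the 28 bases left out there. Matches are descriptions of letters in these windows and do not show binding. The map of motif matches gives their positions by gene.

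**Figure D1:**
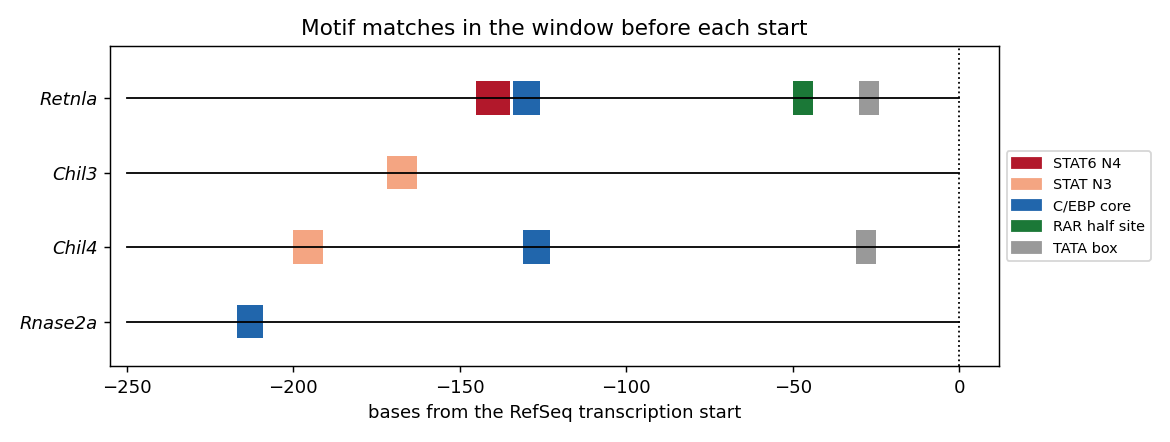
Positions of motif matches in the 250 bases before the RefSeq start of each gene, with bases from the start on the horizontal axis and 1 row per gene. The STAT6 N4 motif and the C/EBP core stand side by side in Retnla; Chil3 and Chil4 hold the shorter STAT N3 motif, and Rnase2a only the C/EBP core.

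The deposited values are log2 CPM (counts relative to library size), and the lowest value of the table, -3.67 (0.0783 CPM), is shared by all libraries and stands for a count of 0. Read counts were not analysed here. As a rough size of 1 read, the median was taken of values 0.015 to 0.04 CPM above the lowest. It was 0.021 to 0.0326 CPM by library, resting on 9 to 34 genes each, and the chosen range bounds it. Replicates of a group correlated at 0.992 to 0.995 across genes. All 14 macrophage markers were in the table, and 0 of 7 lymphocyte markers. The macrophage markers summed to 28470 to 29910 CPM in IL4 RA and 26450 to 29380 in IL4 vehicle libraries. In naive RA they summed to 43290 to 47670 and in naive vehicle to 43720 to 45280. Lyz2, one of them, alone held 13430 to 15590 CPM in IL4 libraries and 24950 to 29100 in naive libraries. Between IL4 vehicle and naive vehicle, 8 of the 14 were called lower and 0 higher, against 29.6% and 30.5% of all genes. The 6 RA-inducible genes listed for the treatment, which include the RA receptor gene Rarb, were chosen with earlier results of these data known. All were called higher with RA (6 of 6 in IL4 cells, against 6.5% of all genes, and 6 of 6 in naive cells, against 3.24%). Rarb, Hic1 and Cyp26b1 passed the filter of 1 CPM in 3 libraries only through their RA libraries. The count is thus a description and no independent check of the treatment. In bulk RNA, fewer cells of a type and less RNA per cell cannot be told apart.

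Retnla was among the more abundant messages after IL4 and at or near no reads without it. Its levels were 7.64, 8.08 and 7.52 log2 CPM in IL4 RA libraries 2, 3 and 4, and 7.60, 7.72 and 7.27 in IL4 vehicle libraries. In naive RA libraries it stood at -2.64, -3.26 and -3.67, and in naive vehicle libraries at -3.33, -2.51 and -3.67. Each naive library was at or within a few reads of the lowest value, and no naive library came near an IL4 library. On the CPM scale above that lowest value, Retnla averaged 217.4 ± 46.5 CPM in IL4 RA and 186.1 ± 29.3 CPM in IL4 vehicle (SD, n = 3 each), while no naive library exceeded 0.0977 CPM. The difference in group means was 10.94 log2 units between IL4 RA and naive RA and 10.70 between IL4 vehicle and naive vehicle. Because the naive values lie at or next to the lowest, the size of these differences is inexact.

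Chil3 was also high after IL4, and it kept a low trace in naive cells. It stood at 7.53, 7.86 and 7.46 log2 CPM in IL4 RA libraries and at 7.53, 7.81 and 7.42 in IL4 vehicle libraries. Naive RA libraries had -1.02, -1.47 and -2.66 and naive vehicle libraries -1.25, -1.63 and -1.69. All 12 Chil3 values lay above the lowest of the table, as those of Retnla did not (2 at the lowest) nor those of Rnase2a (6). The difference in means was 9.33 between IL4 RA and naive RA and 9.11 between IL4 vehicle and naive vehicle. These sizes depend on the small prior in the deposited values: with a pseudocount of 1 CPM in its place, Chil3 differed by 7.30 between IL4 RA and naive RA and by 7.25 between IL4 vehicle and naive vehicle, and Retnla by 7.70 and 7.48 in the same comparisons. In CPM above the lowest value the naive trace of Chil3 was 0.415, 0.284 and 0.0794 in naive RA and 0.343, 0.245 and 0.231 in naive vehicle.

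Rnase2a was lower than both after IL4 and was not detected without it. It stood at 4.32, 4.95 and 4.39 log2 CPM in IL4 RA and at 4.32, 4.71 and 4.13 in IL4 vehicle libraries, and at the lowest value in all 6 naive libraries. No fold is given for it. Among the 13553 genes, 3 were at the lowest value in all 6 naive libraries: Rnase2a, Chil4 and Tuba8, a tubulin gene. Of these 3, Rnase2a was the only one at or above 1 CPM in all 6 IL4 libraries. Chil4 had -0.06, -0.03 and 0.20 log2 CPM in IL4 RA and -0.50, 0.14 and 0.08 in IL4 vehicle, and Tuba8 averaged -0.51 ± 0.21 in IL4 RA and -0.65 ± 0.28 in IL4 vehicle (SD, n = 3 each). No gene had the reverse pattern.

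**Figure D2:**
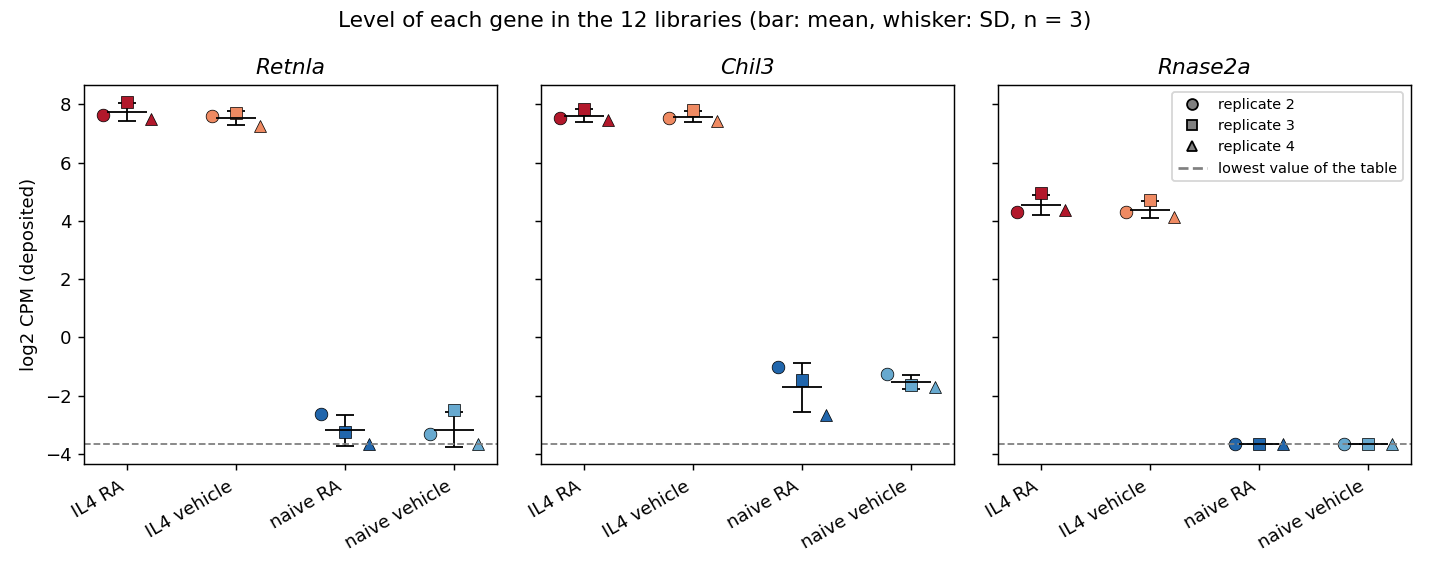
Deposited log2 CPM of Retnla, Chil3 and Rnase2a in each of the 12 libraries by group, with the mean (bar) and SD (whisker, n = 3). The dashed line is the lowest value of the table, -3.67; IL4 libraries sit at 7.27 to 8.08 for Retnla, 7.42 to 7.86 for Chil3 and 4.13 to 4.95 for Rnase2a, and naive libraries at or near the line.

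Levels between genes are compared per kilobase of transcript (599 bases for Retnla, 1539 for Chil3, 690 for Rnase2a). Retnla had 363 ± 77.6 CPM per kb in IL4 RA and 310.7 ± 48.9 in IL4 vehicle, Chil3 had 128.5 ± 19.5 in IL4 RA and 125.6 ± 17.9 in IL4 vehicle, and Rnase2a had 34.7 ± 8.86 in IL4 RA and 30.7 ± 6.42 in IL4 vehicle (SD, n = 3 each). The order was Retnla, Chil3, Rnase2a in every IL4 library. For ranks, the 3 genes kept these transcript lengths, while every other gene was divided by the length of all its exons merged. Merged exons can be longer than a transcript (2817 against 1539 bases for Chil4, 1632 against 1539 for Chil3). The ranks are thus approximate and may place the 3 genes too high. Retnla ranked 97 to 148 of 12205 genes per kb in IL4 RA libraries and 115 to 169 in IL4 vehicle libraries. Chil3 ranked 347 to 432 in IL4 RA and 353 to 445 in IL4 vehicle, and Rnase2a 1087 to 1665 in IL4 RA and 1260 to 1856 in IL4 vehicle. The 3 genes together made up 380 to 533 CPM in IL4 RA and 342 to 461 CPM in IL4 vehicle libraries.

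The question that the design puts to these genes is whether 6 h of RA changes their level once IL4 has acted. With RA after IL4, none of the 3 genes was called: 0 of 3, against 11.7% of all 12116 tested genes (adjusted p under 0.05, Benjamini-Hochberg over all tested genes in limma). Retnla differed by 0.22 log2 units between IL4 RA and IL4 vehicle (SE 0.29, 95% interval -0.41 to 0.84, limma adjusted p = 0.714). Chil3 differed by 0.03 (SE 0.30, 95% interval -0.62 to 0.69, limma adjusted p = 0.967) and Rnase2a by 0.17 (SE 0.20, 95% interval -0.26 to 0.59, limma adjusted p = 0.665). For each gene the 2 groups overlapped. These intervals do not show that RA leaves the genes as they were: they include a rise of 0.84 log2 units for Retnla and a fall of 0.62 for Chil3. The spread that sets them is pooled over all 4 groups, in a fit that does not use the replicate numbers. That spread takes in naive libraries near the lowest value for Retnla and Chil3. For Chil3 the SD was 0.85 in naive RA, against 0.24 in naive vehicle, 0.21 in IL4 RA and 0.20 in IL4 vehicle. For Rnase2a it takes in naive libraries without any spread, so the SE of Rnase2a is held down by them. In a fit of the 6 IL4 libraries alone the adjusted p was 0.422 for Retnla, 0.914 for Chil3 and 0.642 for Rnase2a.

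Set beside each other by number, the IL4 libraries shared their highest replicate across the 3 genes, but not always their lowest. Replicate 3 was the highest library for all 3 genes in both IL4 RA and IL4 vehicle. In IL4 RA the lowest was replicate 4 for Retnla and Chil3 and replicate 2 for Rnase2a. The high replicate 3 is not particular to the 3 genes. Among other genes higher after IL4, Ccl22, Mmp12 and Mgl2 were also highest there in both IL4 groups, while Mrc1 was not. Within replicates 2, 3 and 4, IL4 RA minus IL4 vehicle was 0.04, 0.36 and 0.25 for Retnla, 0.0055, 0.05 and 0.04 for Chil3 and -0.0035, 0.25 and 0.26 for Rnase2a. Retnla and Chil3 were thus higher in IL4 RA in all 3 pairs and Rnase2a in 2 of 3, by amounts within the spread between libraries.

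**Figure D3:**
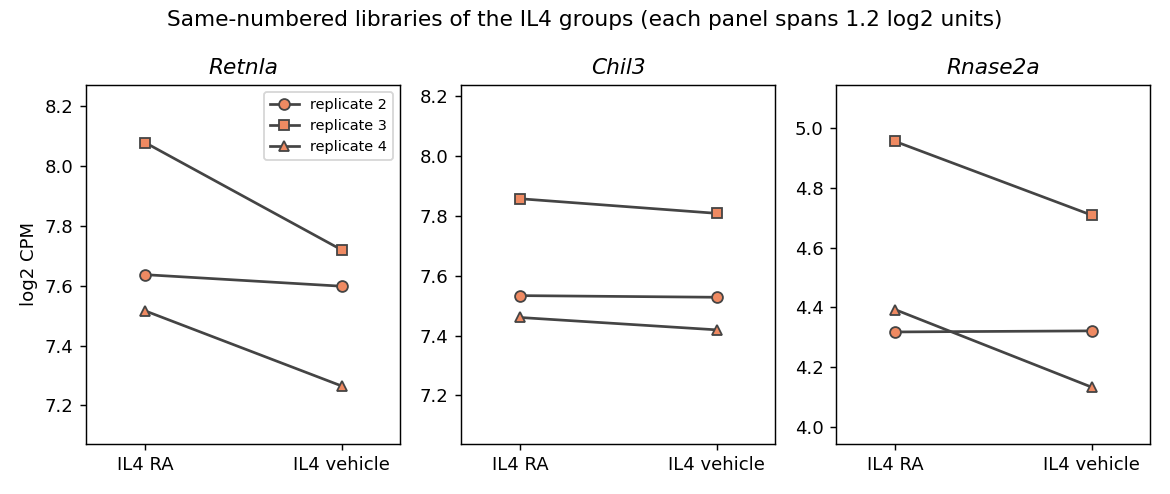
Log2 CPM of each gene in the same-numbered IL4 RA and IL4 vehicle libraries, 1 line per replicate number, each panel spanning 1.2 log2 units. Replicate 3 is the highest line for every gene, and the lines of replicate 2 are nearly flat.

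Ratios between the genes were compared over libraries, where the smallest p that 3 against 3 allows is 0.1, so no ratio could pass 0.05. Retnla over Chil3, in log2 units, was 0.06 to 0.22 in IL4 RA and -0.15 to 0.07 in IL4 vehicle, a difference of 0.18 (exact permutation test, two-sided p = 0.2, adjusted p = 0.3 over 6 ratios). The difference was 0.05 for Retnla over Rnase2a (exact permutation p = 0.7) and -0.14 for Chil3 over Rnase2a (exact permutation p = 0.3). Arg1, the arginase gene, another IL4-induced gene, moved apart from all 3: it rose with RA by 1.74 (SE 0.17, limma adjusted p = 1.45e-05), and its ratio to Retnla was 0.05 to 0.31 in IL4 RA and -1.61 to -1.16 in IL4 vehicle. The ratios to Chil3 and Rnase2a did not overlap between the groups either, with differences of 1.52 over Retnla, 1.70 over Chil3 and 1.57 over Rnase2a (exact permutation p = 0.1 each; adjusted p = 0.2).

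In naive cells RA gave no called change in Retnla or Chil3: 0 of 2, against 6.26% of all tested genes. Retnla differed by -0.02 between naive RA and naive vehicle (SE 0.29, 95% interval -0.65 to 0.61, limma adjusted p = 0.978) and Chil3 by -0.19 (SE 0.30, 95% interval -0.85 to 0.46, limma adjusted p = 0.791). Both genes passed the filter of 1 CPM in 3 libraries only through their IL4 libraries. Their naive values lie near the lowest of the table, so these differences have wide intervals and there was little room for a fall. The 0 of 2 is thus only a description, and no conclusion is drawn from it. Rnase2a, at the lowest value in both naive groups, was not tested. The test of whether the RA difference depends on IL4 called neither Retnla (0.24, SE 0.41, 95% interval -0.65 to 1.13, limma adjusted p = 0.918) nor Chil3 (0.23, SE 0.43, 95% interval -0.70 to 1.15, limma adjusted p = 0.93), against 0.38% of all tested genes. That test rests on the same naive values near the lowest, so it cannot decide the question for these genes.

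Other secreted IL4 products were set beside them, from a list of 17 genes with known secreted products that is not independent of the IL4 response. With RA after IL4, 0 of the 17 rose and 1 fell, against 6.5% of all genes higher and 5.18% lower; their median difference was 0.06, against 0.0023 over all genes. The gene that fell was Angptl2, of an angiopoietin-like protein, at -0.57 (SE 0.11, limma adjusted p = 0.00358). In the comparison of IL4 vehicle with naive vehicle, 14 of the 17 rose and 2 fell, against 30.5% of all genes higher and 29.6% lower. The list was named for this response, so that count is only a description. The chemokine genes Ccl17 (8.14), Ccl22 (6.31), Ccl24 (6.19) and Ccl8 (4.60) were highest. Ccl17, Ccl24, Ccl8 and, lower in the list, Rbp4 passed the filter only through their IL4 libraries. Ccl17 and Ccl24 each had 2 naive values at the lowest, so the size of their differences is inexact. Of 18 cell-associated IL4 products, 3 rose and 1 fell with RA after IL4, against 6.5% of all genes higher and 5.18% lower. Arg1 rose by 1.74, the cyclooxygenase 1 gene Ptgs1 by 1.28 and the transglutaminase gene Tgm2 by 1.15. Tgm2 is also among the RA-inducible genes chosen with earlier results known, so its rise is only a description. Between IL4 vehicle and naive vehicle, 17 of the 18 were called higher, and Tgm2 alone was lower (-1.03, SE 0.06, limma adjusted p = 1.45e-08). The mannose receptor gene Mrc1 differed with RA after IL4 by -0.09 (SE 0.07, limma adjusted p = 0.469). Ch25h, the cholesterol 25-hydroxylase gene, was the one lower with RA after IL4, by 0.94 (SE 0.25, limma adjusted p = 0.0275), and it was not called without IL4 RA library 3 (0.077) or 4 (0.0857), or IL4 vehicle library 2 (0.109) or 3 (0.0964).

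**Figure D4:**
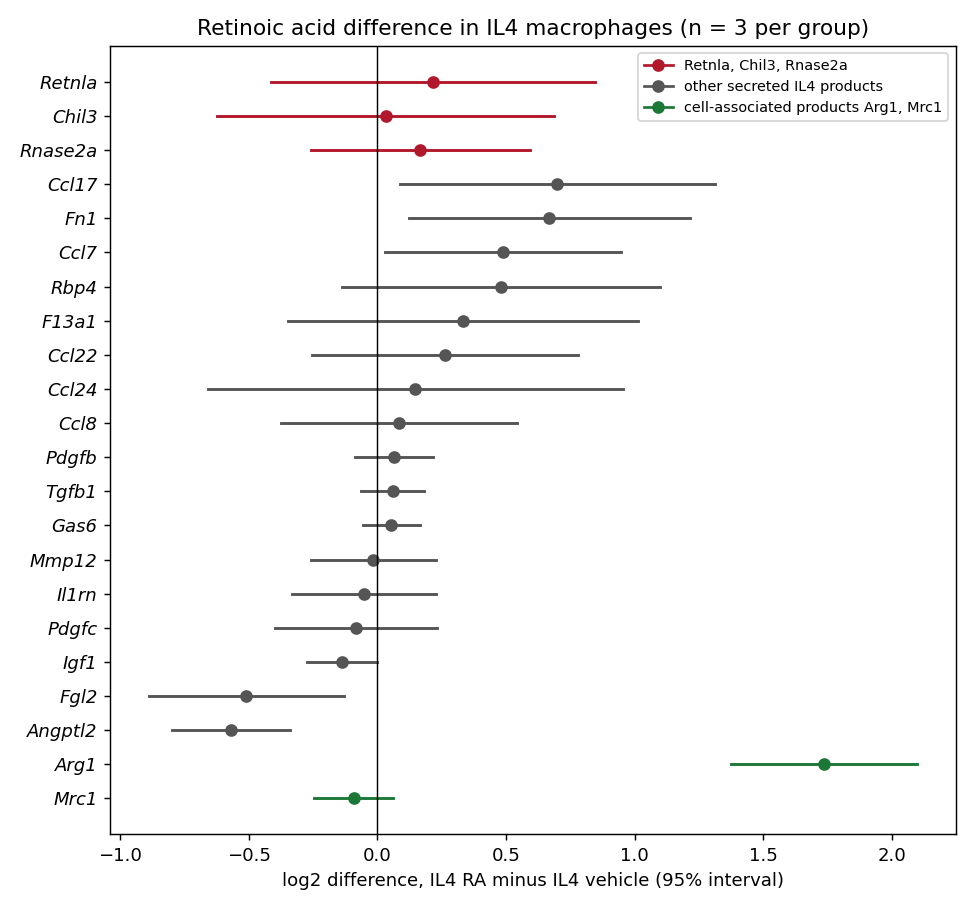
Log2 difference between IL4 RA and IL4 vehicle with its unadjusted 95% interval for Retnla, Chil3 and Rnase2a (top), 17 other secreted IL4 products (middle) and the cell-associated Arg1 and Mrc1 (bottom), n = 3 per group. The 3 genes lie at 0.22, 0.03 and 0.17 with intervals across 0, while Arg1 lies at 1.74; of the other secreted products only Angptl2 was called after adjustment.

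Among relatives of the 3 genes, the table held 1 of 4 resistin genes (Retnla itself), 5 of 10 glycosyl hydrolase 18 genes and 5 of 21 ribonuclease A genes. Chil4, which encodes Ym2, was listed at the lowest value in naive libraries, so no fold is given, and it passed the filter through its IL4 libraries. The chitinase-domain gene Chid1 (0.12, SE 0.06, limma adjusted p = 0.126) and the lysosomal chitobiase gene Ctbs (-0.07, SE 0.05, limma adjusted p = 0.312) were not called between IL4 vehicle and naive vehicle. In that comparison the eosinophil-associated ribonuclease gene Ear2 rose by 3.72 (SE 0.46, limma adjusted p = 1.14e-05) and Rnase6, of an antimicrobial ribonuclease, by 1.28 (SE 0.18, limma adjusted p = 3.22e-05). Rnase4 fell by 0.49 (SE 0.05, limma adjusted p = 2.49e-06), and the angiogenin gene Ang differed by -0.06 (SE 0.12, limma adjusted p = 0.698). With RA after IL4, 0 of 3 chitinase relatives (differences of -0.08 to 0.13) and 0 of 4 ribonuclease relatives (-0.03 to 0.22) were called, against 11.7% of all genes, so that few or no calls among so few genes is near the background. The plot of IL4 vehicle against naive vehicle places the families beside the 3 genes.

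**Figure D5:**
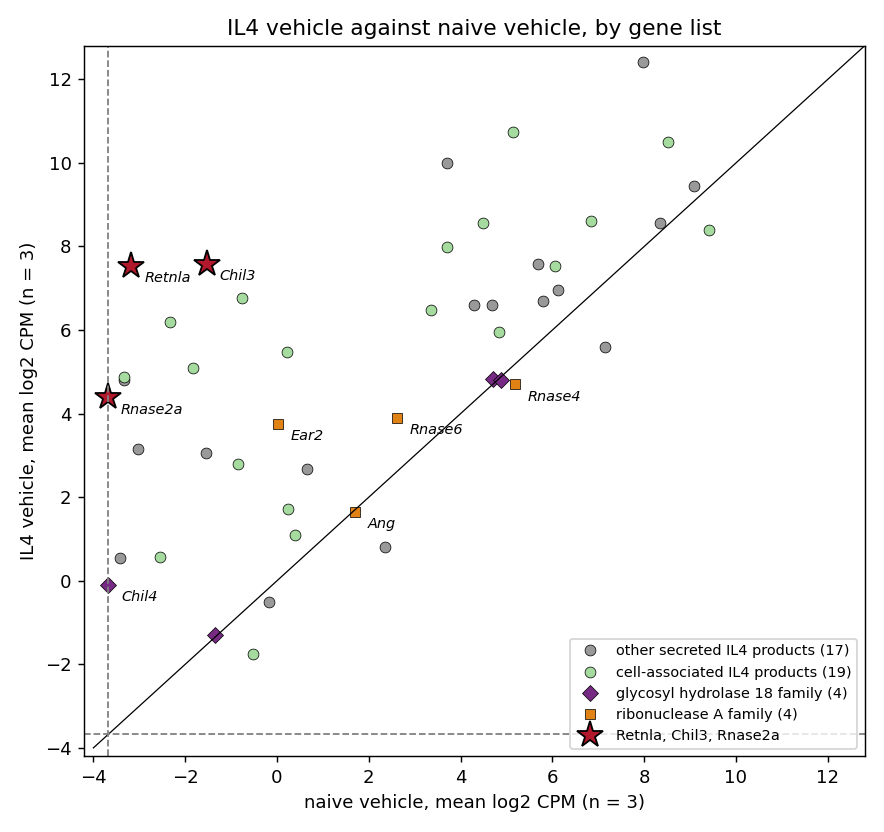
Mean log2 CPM in IL4 vehicle (vertical) against naive vehicle (horizontal) for the 3 genes (stars), other IL4 products, and relatives of Chil3 and Rnase2a, n = 3 per group. Dashed lines mark the lowest value; the diagonal is equality, and the 3 genes sit far above it at 7.53, 7.59 and 4.39, with naive means of -3.17, -1.52 and -3.67.

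Relatives can share reads. Chil4 shares 31.1% of Chil3's 31-base transcript windows but 3.61% of its 101-base windows (52 of 1439), and since reads were 101 bases long, the split between Chil3 and Chil4 is uncertain for that small part. Retnla shares 5.45% of 31-base windows with Retnlg and no 101-base window, and Rnase2a at most 3.03% and none with the 6 relatives compared. Within 250 kb of the 3 genes, a distance chosen after values were seen, 9 genes were tested. With RA after IL4, 0 of 9 were called (-0.28 to 0.14), against 11.7% of all genes. Between IL4 vehicle and naive vehicle 4 rose and 2 fell, against 30.5% and 29.6% of all genes, and the 4 include Chil4, which passed the filter through its IL4 libraries. The gene of the table nearest to Chil3 was Chil4, 33927 bases upstream, while Rnase4, a neighbour and relative of Rnase2a whose locus overlaps Ang, was lower in IL4 vehicle.

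Some markers of other cells moved with these genes. Of 10 eosinophil markers 4 were in the table, and all 4 rose in IL4 vehicle over naive vehicle, against 30.5% of all genes: Siglecf by 5.43, Ear2 by 3.72, Il5ra by 0.86 and Ccr3 by 0.57. They summed to 98.2 to 121 CPM in IL4 RA, 79.6 to 100.3 in IL4 vehicle, 10.4 to 12.99 in naive RA and 9.56 to 11.4 in naive vehicle. Ccr3 also rose with RA after IL4, by 0.64. The 4 do not include the defining granule genes Epx, Prg2 and Prg3. Of 14 neutrophil and granulocyte precursor markers 5 were in the table, with sums of 35.0 to 38.4 CPM in IL4 RA, 33.1 to 38.9 in IL4 vehicle, 8.67 to 9.05 in naive RA and 8.24 to 9.52 in naive vehicle. Of 12 alveolar macrophage markers 5 were in the table, Siglecf and Ear2 among them, and 4 rose and 1 fell with IL4 in vehicle. The one that fell was Marco (-2.14, limma adjusted p = 3.25e-06), and it rose with RA after IL4, by 1.11 (limma adjusted p = 0.00681). Sums of the 5 were 5003 to 5336 CPM in IL4 RA, 5147 to 5361 in IL4 vehicle, 1293 to 1556 in naive RA and 1484 to 2010 in naive vehicle. Of 5 dendritic cell markers 3 were in the table, and both that were tested rose with IL4 in vehicle, Ccr7 by 4.02 and Zbtb46 by 3.55. Their sums were 71.2 to 104.6 CPM in IL4 RA, 71.7 to 98.1 in IL4 vehicle, 4.63 to 8.16 in naive RA and 4.48 to 7.55 in naive vehicle. Of 6 mast cell and basophil markers 2 were in the table, and Gata2 (2.63) and Hdc (1.22) rose with IL4 in vehicle, with sums of 2.65 to 2.92 CPM in IL4 RA, 3.44 to 4.72 in IL4 vehicle, 0.556 to 0.876 in naive RA and 0.812 to 1.02 in naive vehicle. The 4 of 5 fibroblast markers in the table had sums of 10.6 to 24.3 CPM in IL4 RA, 13.3 to 19.1 in IL4 vehicle, 25.2 to 37.6 in naive RA and 20.4 to 38.6 in naive vehicle, and 1 of the 3 tested, Col1a1, fell with IL4 in vehicle. Il5ra, Zbtb46, Gata2 and Hdc reached 1 CPM only in IL4 libraries and passed the filter through them, so their rises are only a description. Single genes made up most of some sums in IL4 libraries: Siglecf (57.5 to 85.1 CPM), Mmp8 (25.6 to 33.1), Lpl (4854 to 5262) and Ccr7 (65.2 to 98.35). Whether other cells have a part in the levels of Retnla, Chil3 and Rnase2a was not tested.

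The genes whose profile over the 12 libraries was most like each of the 3 were found by Pearson's r of log2 CPM. For Retnla they were Itgax, an integrin gene (0.999), Il27ra, Il11ra1, Slc1a5 and Apol7c. For Chil3 they were Etfa (0.999), Alas1, Itgax, Il11ra1 and Maff, and for Rnase2a Itgax (0.999), Alas1, Mmp12, Cs and Mgl2. The libraries form separate IL4 and naive clusters, so the r mostly reflects that gap; 144 genes reached 0.99 with Retnla, 147 with Chil3 and 171 with Rnase2a.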

How the data were processed

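RNA sequencing of 12 libraries (TruSeq stranded poly(A) kit, single end, per the labels' protocols) gave 1 table. Per the submitters' processing notes, bcl2fastq 2.20, Salmon 0.13.1, edgeR 3.32.1 and GRCm38 were used. The values deposited by the authors are log2 CPM; a shared lowest value shows a small prior. Here, 12116 genes that reached 1 CPM in 3 or more libraries were tested (1437 were removed) in limma 3.58.1 (R 4.3.3) on the log2 values as deposited, with 1 mean per group, an intensity trend and two-sided p-values adjusted by Benjamini-Hochberg; 95% intervals are unadjusted. The code was tested on simulated data. Ratios used exact permutation tests. The named genes were the 3 genes, their families and Rnh1, up to 4 called genes of each list in each direction per contrast with Arg1 and Mrc1 always, and the 5 most similar genes. The members, lists, motifs and neighbour distance were chosen with earlier results of these data known. Deviations of same-numbered libraries from group means correlated at 0.245, 0.193 and 0.128 between the IL4 groups. In naive groups the correlations were 0.51, 0.277 and 0.0706. Libraries with different numbers were not compared, and the labels do not say, so whether these numbers pair the samples is not settled. The SEs and intervals given come from the fit without pairing. Promoter windows are RefSeq (GRCm38.p6) and transcript lengths GENCODE vM21.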

Additional observations from a re-analysis of the deposited data

Results flagged for a closer look

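No group of 3 was tested for outlying libraries. Among the genes set beside the 3, the RA difference itself differed between IL4 and naive cells for Ptgs1 and Cebpe, which is why they are listed. Cebpe passed the filter only through its IL4 RA libraries, where it was highest. No alternative was computed for the interaction of either gene. Ptgs1, the cyclooxygenase 1 gene, gave -0.52 for the RA difference in IL4 cells less the one in naive cells (SE 0.08, limma adjusted p = 0.019): it rose by 1.28 with RA after IL4 and by 1.79 in naive cells. Cebpe, a myeloid transcription factor gene of the C/EBP family, had 2.01 (SE 0.36, limma adjusted p = 0.0325): it averaged 2.04 ± 0.26 log2 CPM in IL4 RA and -0.18 ± 0.32 in IL4 vehicle (SD, n = 3 each), against -0.58 ± 0.18 in naive RA and -0.79 ± 0.48 in naive vehicle.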

How the results depend on the processing

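Retnla, Chil3 and Rnase2a were called for RA in none of the alternatives run (22 for each RA difference, 21 for each interaction). Adjusted p ranged from 0.34 to 0.966 for Retnla, 0.861 to 0.997 for Chil3 and 0.436 to 0.964 for Rnase2a in IL4 cells, 0.56 to 0.99 for Retnla and 0.318 to 0.96 for Chil3 in naive cells, and 0.736 to 0.999 and 0.668 to 0.99 for their interactions. Without 1 replicate, the RA difference in IL4 cells ran from 0.05 to 0.33 for Retnla, -0.088 to 0.14 for Chil3 and -0.033 to 0.33 for Rnase2a; in naive cells from -0.30 to 0.31 for Retnla and -0.54 to 0.28 for Chil3; the interactions from -0.093 to 0.52 for Retnla and -0.25 to 0.57 for Chil3. With a replicate block the adjusted p was 0.555 for Retnla, 0.952 for Chil3 and 0.605 for Rnase2a in IL4 cells, 0.965 for Retnla and 0.688 for Chil3 in naive cells, and 0.828 and 0.866 for the interactions, with no call changed; the block called 1664 genes with RA in IL4 cells, 987 in naive cells and 78 for the interaction. Interaction calls numbered 46 in the fit reported, 15 without an intensity trend and 17 to 67 without 1 replicate; RA calls were 894 to 1498 in IL4 cells (894 without IL4 RA replicate 3) and 416 to 885 in naive cells. The IL4 difference of Retnla was 8.43 (pseudocount 0.5 CPM) and 7.48 (1 CPM) in vehicle and 8.65 and 7.70 in RA; that of Chil3 was 7.96 and 7.25 in vehicle, 8.68 with quantile normalization, and 8.04 and 7.30 in RA. Rnh1, the ribonuclease inhibitor gene, differed by 0.13 between IL4 vehicle and naive vehicle (limma adjusted p = 0.0579) and by -0.021 with quantile normalization. It was called, at 0.13, in the fit of those groups alone (limma adjusted p = 0.0107). The same held without IL4 RA replicate 2 (0.0042) or 3 (0.0308). The cause was not tested. No alternative was computed for naive or interaction tests of Rnase2a, at the lowest value there.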

Other observations

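Of 12 genes of the IL4 receptor and its signalling, 1 rose and 2 fell with RA after IL4, against 6.5% of all genes higher and 5.18% lower. The one that rose was Irs2, an adaptor of the receptor (0.42, limma adjusted p = 0.0179), which was not called without IL4 RA library 2 (0.057), without IL4 vehicle library 2 (0.0675) or in the fit of the 6 IL4 libraries alone (0.084). Il13ra1, a receptor chain shared with interleukin 13, fell by 0.44 (SE 0.06, limma adjusted p = 0.000341), and Socs1, a feedback inhibitor of cytokine signalling, by 0.81 (SE 0.18, limma adjusted p = 0.00895). Stat6 differed by -0.01 and Il4ra by 0.03, and neither was called. Of 12 transcription factor genes of alternative activation, 4 rose and 2 fell, against the same shares of all genes, and 1 of these 6 kept its call whichever library was left out: Rbpj, a Notch pathway factor, which rose by 0.24 (SE 0.04, limma adjusted p = 0.00141).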
